A study of Drosophila melanogaster with 23 samples.

Results

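A set of 185 microarray probes, of 32161 with deposited log2 values (0.575%), was selected for values that were low at 4, 12 or 24 h after S2R+ cells were moved from 25 to 14 °C and closer to the 25 °C level at 72 h. Unadjusted scanner values were also fitted with slide as a block. There the medians of the 8 probes lowest at 4 h and of the 16 lowest at 24 h kept this course. The median of the 161 probes lowest at 12 h was -0.31 at 12 h and -0.32 at 72 h in that fit. For these 161 a recovery of the median was present in the deposited values but not with slide as a block. Single probes differed, and in that fit 82 of the 161 were lower at 72 h than at 12 h. S2R+ is a cultured Drosophila line from embryos that resembles hemocytes, the blood cells of the fly. The set was chosen from the deposited values themselves. A probe was a member if its group mean at 4, 12 or 24 h was at least 0.8 below the mean of the arrays at 25 °C on the log2 scale, if every array of that lowest group lay below all 6 arrays at 25 °C, and if the change at 72 h was above 0.5 times the lowest change and below 0.7. Probes with a change of 1 or more at 4 or 12 h were left out. The falls and recoveries below are therefore descriptions of the selection, and no test was run on them.

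All cells were untreated S2R+ cells that had first grown for 36 h at 25 °C. RNA taken at that point gave the 0 h group with 3 arrays, and a further 12 h of growth at 25 °C gave the group here called t12_25, also with 3. At 14 °C there were 5 arrays each of the 4 h and 24 h groups, 3 of the 12 h group and 4 of the 72 h group. The 0 h and t12_25 arrays together were the 25 °C baseline, and t12_25 was sampled because cell density then is comparable to that after 72 h in the cold. The study's methods call the replicates biological, and no label says which arrays share a culture or a day. All paired probes of hemocyte markers were well above background on all 23 arrays, namely those of srp, vkg and ush, whereas 7 further marker genes of that list could not be paired with a probe. Paired markers of muscle, germline and fat body (Tm2, wupA, vas and Yp1) and the neuronal brp were so on at most 5 arrays, whereas the neuronal genes Syt1 and Cadps were so on all 23.

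Of the 185 members, 161 were lowest at 12 h (87.0%), 16 at 24 h and 8 at 4 h. Names could be given to 38 member probes of 36 genes. A further 2 members paired with several genes and 145 with none, so most of the set is described by its values only. Many of the named members are chaperones, mitochondrial proteins or proteins of the nucleus, and the others have various roles. These roles describe the named members only. Chaperones bind unfolded proteins. DnaJ-1, an Hsp40 co-chaperone, hands client proteins to Hsp70 and stimulates its ATP cycle, and Hsp68 is an inducible member of the Hsp70 family, and both are classic targets of heat shock factor in the fly. The respiratory chain of mitochondria passes electrons from NADH to oxygen. Its complex I is assembled from many nuclear-encoded subunits around a core that includes proteins such as ND1, which the mitochondrial genome encodes, and mitochondrial ribosomes translate the latter.

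**Figure D1:**
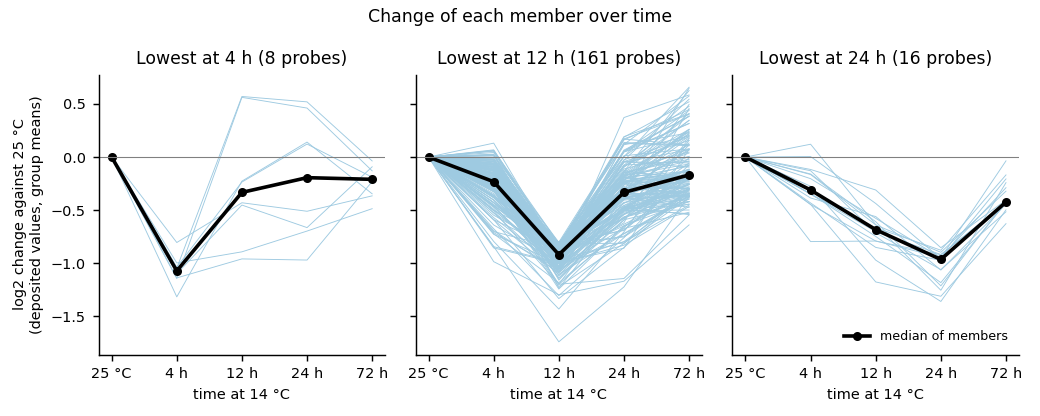
Log2 change of every member against the mean of the 6 arrays at 25 °C (y axis, deposited values, group means) at each time at 14 °C (x axis, not to scale), in panels by the time of the lowest value; thin lines are probes and the black line is their median. The medians reach -1.07 at 4 h (8 probes), -0.92 at 12 h (161 probes) and -0.96 at 24 h (16 probes).

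Members lowest at 4 h had median changes of -1.07, -0.33, -0.19 and -0.21 at 4, 12, 24 and 72 h. Those lowest at 12 h changed by -0.23, -0.92, -0.33 and -0.17 at the same times, and 54 of these 161 were at or above their 25 °C mean at 72 h. Those lowest at 24 h changed by -0.31, -0.68, -0.96 and -0.42, and none of these 16 had returned to the 25 °C mean. Over all probes the medians were between -0.003 and 0.0033. The limit at -0.8 cut through a continuum. The 3 members closest to it had lowest changes of -0.8, -0.8 and -0.802, and the 3 probes just outside, among them that of Lamtor1, a subunit of the Ragulator complex, had -0.797, -0.797 and -0.795. At the recovery limit, the 3 members closest to it kept 0.494, 0.493 and 0.488 of their lowest change at 72 h, and the 3 just outside kept 0.503, 0.505 and 0.506. At the upper limit, the changes at 72 h were 0.66, 0.65 and 0.63 inside and 0.71, 0.76 and 0.92 outside.

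Values of the members also differed between slides. The 23 arrays lay on 7 slides, numbered here from the array barcodes. Slides 1 and 3 held 25 °C and 12 h arrays side by side, slides 1, 5 and 6 held 25 °C and 72 h arrays, and slide 2 held 1 array each of 4, 12, 24 and 72 h. Slides 4 and 7 held only 4 h and 24 h arrays. No 12 h array lay on slides 5, 6 or 7. The deposited values had been adjusted by surrogate variable analysis, a method that estimates and removes unwanted variation. The spot intensities of the scanner files, which have not been adjusted, were therefore normalized anew and set beside them.

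In the scanner values the 161 members lowest at 12 h followed the slide. Their median difference from the 25 °C mean was between 0.20 and 1.42 on each of the 8 arrays of slides 5, 6 and 7, and between -1.18 and -0.32 on each of the 15 arrays of slides 1 to 4, whatever the time. The groups did not separate. A 0 h array on slide 6 stood at 1.05, and the 0 h arrays on slides 3 and 1 stood at -0.52 and -0.80. The 12 h arrays stood at -0.63 on slide 3, -1.10 on slide 2 and -1.18 on slide 1. Within slide 3 the 12 h array differed from the mean of the 25 °C arrays by a median of -0.18, and within slide 1 by -0.41. On slide 2 the 12 h array differed from the 4 h, 24 h and 72 h arrays by -0.08, -0.10 and -0.01. In the deposited values the same differences were -0.94 within slide 3, -0.92 within slide 1, and -0.78, -0.62 and -0.77 on slide 2. From scanner to deposited values, the 12 h array on slide 3 had moved by -0.40, and the 0 h and t12_25 arrays there by 0.32 and 0.36. On slide 1 the 12 h array had moved by 0.27, and the 0 h, t12_25 and 72 h arrays by 0.74, 0.83 and 0.87. On slide 2 the 12 h array had moved by 0.23, and the 4 h, 24 h and 72 h arrays by 0.96, 0.74 and 0.93.

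**Figure D2:**
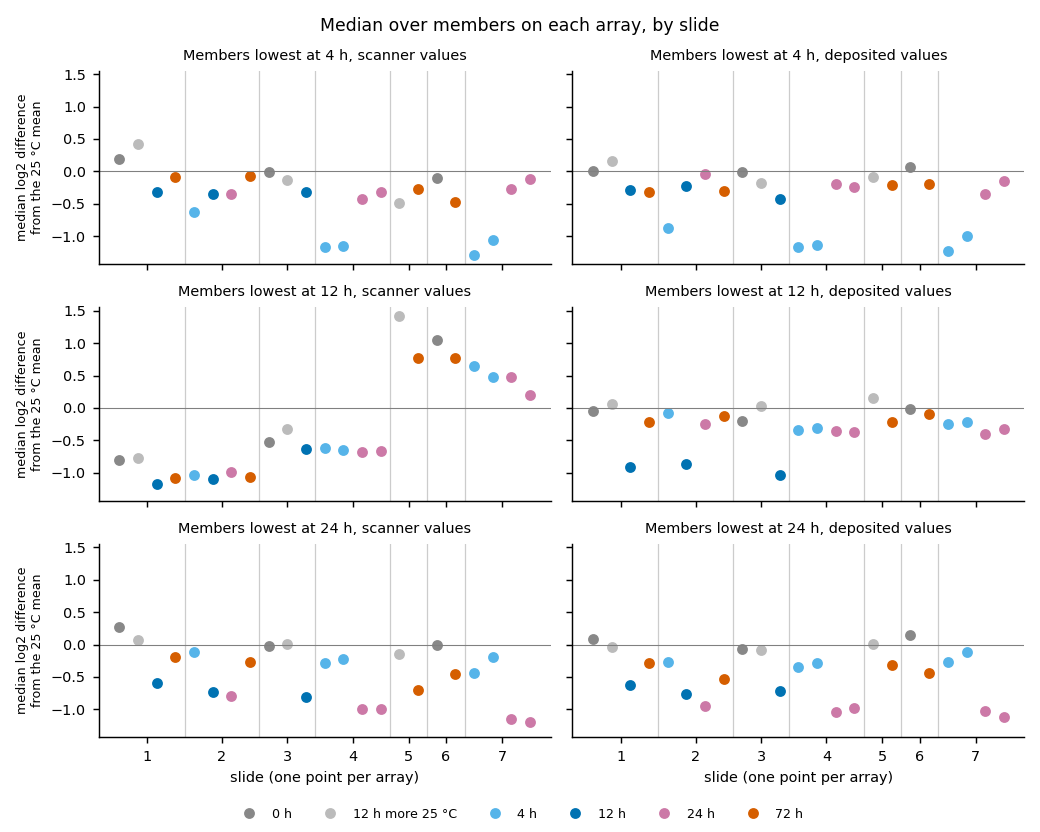
Median over members of the log2 difference from the 25 °C mean on each array (y axis), with arrays placed by slide (x axis, 1 to 7) and coloured by group, for scanner values (left) and deposited values (right). In the scanner values the members lowest at 12 h lie between 0.20 and 1.42 on slides 5, 6 and 7 and between -1.18 and -0.32 on slides 1 to 4, whereas the 4 h arrays of the top row and the 24 h arrays of the bottom row are low on every slide that holds them.

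With slide fitted as a block in limma, the median change of the 161 members was -0.31 at 12 h, -0.31 at 24 h and -0.32 at 72 h, so that the median showed no recovery in that fit. Of the 161, 22 still had a change of -0.8 or less at 12 h and 18 had a change above 0, and in 82 the value at 72 h was below that at 12 h. The difference between slides 7 and 4 describes the same pattern. It was chosen after that pattern had been seen in these arrays, and is given as support for nothing. The calls counted here for this contrast rest on an adjusted p under 0.05 in limma. That limit does not hold for a contrast picked from the same arrays, so the counts are a description and not a test. Slides 7 and 4 each held 2 arrays of 4 h and 2 of 24 h, and in the fit of group and slide 93 of the 185 members were called at least 2-fold higher on slide 7 by limma, among them 92 of the 161 lowest at 12 h, against 1.26% of all probes. None of the members, and 0% of all probes, were lower. The median difference was 1.14 for these 161, -0.08 for the 8 lowest at 4 h, -0.15 for the 16 lowest at 24 h and -0.02 over all probes. Slide and replicate cultures cannot be told apart in this contrast.

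The members lowest at 4 h and at 24 h kept their pattern in the scanner values. The median of the 8 members lowest at 4 h was between -1.30 and -0.63 on the 5 arrays at 4 h, which lay on slides 2, 4 and 7, and between -0.48 and 0.41 on the arrays at 25 °C. The lowest of the latter, at -0.48, was the t12_25 array on slide 5. The median of the 16 members lowest at 24 h was between -1.20 and -0.79 on the 5 arrays at 24 h and between -0.15 and 0.27 at 25 °C. With slide as a block the changes were -1.13 at 4 h for the first and -0.90 at 24 h for the second, and at 72 h -0.30 and -0.39. No array of 4 h or 24 h shared a slide with an array at 25 °C, so these blocked values rest on links through the other groups. On slide 2 itself, the 8 members were 0.87 higher at 12 h than at 4 h in the scanner values (0.75 in the deposited values). The 16 members were only 0.056 higher at 12 h than at 24 h there (0.135 in the deposited values). At a limma adjusted p under 0.05 and at least 2-fold, the blocked fit called 5 of the 8 lower at 4 h (0.0497% of all probes), 11 of the 161 lower at 12 h (0.398%) and 5 of the 16 lower at 24 h (0.802%), and no member lower at 72 h (0.908%). Without the block these counts were 6 of 8 (0.0622%), 14 of 161 (0.367%), 7 of 16 (0.749%) and no member (0.97%). No member was called higher at 4, 12, 24 or 72 h, where 0.454%, 0.665%, 1.04% and 1.27% of all probes were called higher with the block and 0.314%, 0.905%, 0.886% and 1.14% without it. The selection used these contrasts, so nothing is read from the shares.

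DnaJ-1 had the deepest fall among the named members and was the only named gene with more than 1 member probe. All 3 probes paired with it were members. The first stood at 11.92, 11.72 and 11.73 on the 0 h arrays and at 12.11, 11.83 and 11.63 on the t12_25 arrays. At 4 h it stood at 10.57, 10.49, 10.44, 10.57 and 10.47, and at 12 h at 11.70, 11.55 and 11.54. It reached 12.19, 11.99, 11.99, 11.73 and 11.92 at 24 h, and the 72 h arrays were at 11.48, 11.35, 11.49 and 11.59. All 4 h arrays lay below every other array, of which the lowest was at 11.35, and those at 72 h lay below all at 25 °C. The change was -1.32 at 4 h (10.51 ± 0.06, SD, n = 5, against 11.82 ± 0.17, SD, n = 6), and at the later times -0.23, 0.14 and -0.35.

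The other two probes of DnaJ-1 had group means above the 25 °C level at 12 and 24 h. The second stood at 12.32, 12.21 and 12.21 at 0 h, at 12.00, 12.01 and 12.42 in t12_25, and at 10.99, 10.98, 10.99, 11 and 11.30 at 4 h. It then reached 12.70, 12.79 and 12.78 at 12 h, above every array at 25 °C, and 12.79, 12.59, 12.59, 13.10 and 12.21 at 24 h, before 12.19, 12.54, 11.63 and 11.90 at 72 h. Its changes were -1.14, 0.56, 0.46 and -0.13 at 4, 12, 24 and 72 h. The third probe changed by -1.04, 0.57, 0.52 and -0.04, with arrays between 10.58 and 10.88 at 4 h, between 12.27 and 12.35 at 12 h, between 11.93 and 12.67 at 24 h, between 11.45 and 12.12 at 72 h and between 11.47 and 12.00 at 25 °C. With slide as a block the changes at 4 h were -1.30 (SE 0.18), -1.36 (SE 0.30) and -1.12 (SE 0.28). The array design assigns the 3 probes to the same transcript. Where on it they lie was not analysed here.

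Hsp68 stood at 9.53, 10.07 and 9.64 at 0 h and at 9.70, 9.76 and 9.81 in t12_25. It fell to 8.62, 8.52, 8.67, 8.84 and 8.93 at 4 h, lower than on any other array. It was back at 9.38, 9.60 and 9.57 at 12 h, at 9.87, 9.64, 9.83, 10.16 and 9.87 at 24 h, and at 9.71, 9.45, 9.51 and 9.58 at 72 h. The changes were -1.04, -0.24, 0.12 and -0.19. Its scanner values also differed by slide, by 1.03 between slides 7 and 4, yet with slide as a block the change at 4 h was -1.16 (SE 0.11).

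**Figure D3:**
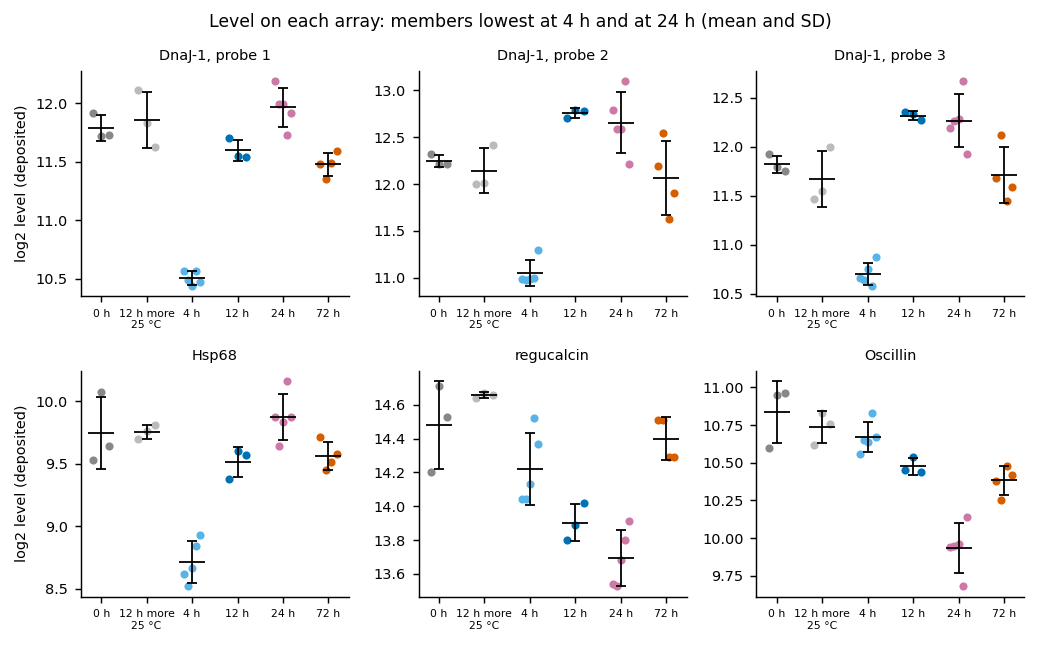
Deposited log2 level (y axis, own range in each panel) of the 3 DnaJ-1 probes, Hsp68, regucalcin and Oscillin on each array (points) by group (x axis), with group mean and SD (black). At 4 h the DnaJ-1 and Hsp68 arrays are the lowest of all groups, and at 12 h probes 2 and 3 of DnaJ-1 lie between 12.27 and 12.79, above all of their 25 °C arrays.

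The heat shock list, taken from the study, held 19 probes, of which 1 of DnaJ-1 and that of Hsp68 were members. Of the other 17, 4 have no name here. In limma on scanner values none of them was at least 2-fold lower at 4 h at an adjusted p under 0.05 (0.0622% of all probes lower), and 4 were at 72 h (0.97% of all probes lower), namely Hsp23 (-1.95, SE 0.38) and 3 of the 4 probes of Hsp27 (-1.18, -1.24 and -1.21), which encode small heat shock proteins. Hsp26, another small heat shock protein, was higher at 12 h by 1.19 (SE 0.33, adjusted p 0.0203 in limma). With slide as a block the counts were the same at each of these times. Without the fold limit, 1, 4, 8 and 10 of the 17 were lower at 4, 12, 24 and 72 h. Over all probes the shares were 2.75%, 5.05%, 7.89% and 9.14%. With slide as a block 0, 9, 4 and 11 were (1.25%, 9.15%, 5.34% and 12.9%). The 1 at 4 h, unnamed, changed by -0.99 (SE 0.17, adjusted p 0.000586 in limma). It changed by -0.52 (SE 0.26) with slide as a block. The 17 were required not to be members, which limits how many can be low. The list's median changes in the deposited values were -0.33, -0.27, -0.38 and -0.48 at 4, 12, 24 and 72 h, lowest at the last time. Whether DnaJ-1 and Hsp68 differ in time course from Hsp23 and Hsp27 was not tested.

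The third named member lowest at 4 h was lncRNA:CR43242, a noncoding RNA. It stood at 9.42, 9.35 and 9.47 at 0 h, at 9.26, 9.18 and 9.47 in t12_25 and at 8.33, 8.4, 8.30, 8.30 and 8.48 at 4 h. At 12 h it was still at 8.62, 8.21 and 8.57 and at 24 h at 8.49, 8.60, 8.53, 9.07 and 8.62, and it rose to 8.71, 9.14, 8.73 and 8.91 at 72 h. Its change of -0.996 at 4 h had returned only to -0.49 at 72 h, close to the recovery limit, and was -0.69 (SE 0.21) at 4 h with slide as a block. The other 3 members lowest at 4 h have no name here and changed by between -1.14 and -0.80 at 4 h.

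Among members lowest at 24 h, regucalcin and Oscillin had a name. Regucalcin is known from mammals as a calcium-binding protein, and Oscillin is a glucosamine-6-phosphate isomerase of amino sugar metabolism. Regucalcin stood at 14.20, 14.71 and 14.53 at 0 h and 14.64, 14.67 and 14.66 in t12_25. It was at 14.04, 14.04, 14.13, 14.52 and 14.37 at 4 h, 13.80, 13.89 and 14.02 at 12 h, 13.54, 13.53, 13.68, 13.80 and 13.91 at 24 h, and 14.51, 14.51, 14.29 and 14.29 at 72 h. The 12 h and 24 h arrays thus overlapped each other, but not those at 25 °C. The change at 24 h was -0.88, and -0.77 (SE 0.16) with slide as a block.

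Oscillin stood at 10.60, 10.95 and 10.96 at 0 h and at 10.62, 10.83 and 10.76 in t12_25. It was between 10.56 and 10.83 at 4 h and between 10.44 and 10.54 at 12 h, then at 9.94, 9.95, 9.96, 9.68 and 10.14 at 24 h and at 10.38, 10.25, 10.48 and 10.42 at 72 h, where all arrays were still below those at 25 °C. The change at 24 h was -0.85, and -0.81 (SE 0.13) with slide as a block. The 14 other members lowest at 24 h changed by between -1.36 and -0.90 at that time and by between -1.18 and -0.44 at 12 h. Of all 16, the 24 h value was at most -0.8 with slide as a block in 11 and at most -0.4 in all 16.

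Named members lowest at 12 h included 12 genes of mitochondria. Names came in part from the study's process lists, which cover oxidative phosphorylation and the mitochondrial ribosome. The share of such genes among all named probes was not computed, so nothing is read from this count. For complex I these were the subunits ND-39, ND-75 and ND1 and the assembly factor CIA30, for complex IV the subunit COX7C, and for the insertion of proteins into the inner membrane OXA1L. For the mitochondrial ribosome they were mRpS35, mRpL32, mRpS28, mRpS18B, mRpL21 and mRpS6. In the deposited values their changes at 12 h were between -1.06 and -0.83. With slide as a block they were between -0.46 and 0.19.

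ND-39 stood at 8.69, 9.05 and 9.00 at 0 h, at 8.73, 9.35 and 8.93 in t12_25, and at 7.62, 8.15 and 7.94 at 12 h in the deposited values. At 4 h it was between 8.56 and 9.01, at 24 h between 8.33 and 8.83 and at 72 h between 8.66 and 8.93. The 12 h arrays lay below all others, with a change of -1.06. In the scanner values the 3 arrays of 0 h were at 8.20, 10.47 and 7.98 on slides 3, 6 and 1, those of t12_25 at 8.18, 10.99 and 7.74 on slides 3, 5 and 1, and those of 12 h at 8.16, 7.82 and 7.56 on slides 3, 2 and 1. The differences within slide 3 and slide 1 were then -0.03 and -0.30, and the change with slide as a block was -0.16 (SE 0.14) at 12 h and -0.57 at 72 h.

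ND-75, an iron-sulfur subunit of complex I, stood at 8.97, 9.34 and 9.41 at 0 h, at 9.11, 9.55 and 9.42 in t12_25 and at 8.05, 8.56 and 8.35 at 12 h. It was between 8.94 and 9.66 at 4 h, between 8.78 and 9.51 at 24 h and between 8.97 and 9.81 at 72 h. Its change was -0.98 in the deposited values and -0.06 (SE 0.10) with slide as a block. CIA30 stood at 8.13, 8.30 and 8.41 at 0 h, at 8.47, 8.57 and 8.30 in t12_25 and at 7.27, 7.41 and 7.27 at 12 h. It was between 8.12 and 8.39 at 4 h, between 7.92 and 8.23 at 24 h and between 8.06 and 8.36 at 72 h. The changes were -1.05 and, with slide as a block, -0.30 (SE 0.13). Both had all 12 h arrays below every other array in the deposited values.

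ND1 is the only named member that the mitochondrial genome encodes. Its 0 h arrays, at 11.07, 10.68 and 10.72, and its t12_25 arrays, at 11.86, 11.70 and 11.76, did not overlap. At 12 h it stood at 10.24, 10.51 and 10.06, below every other array, and at 72 h at 11.86, 11.97, 11.80 and 11.90, overlapping with t12_25. It was between 10.67 and 11.47 at 4 h and between 11.18 and 11.89 at 24 h. The change was -1.03 at 12 h against the pooled baseline and 0.58 at 72 h. With slide as a block it was 0.19 (SE 0.23) at 12 h, so the fall was not present in that fit. The other probe of ND1 changed by -0.25 at 12 h.

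In the mitochondrial ribosome, mRpS35 stood at 10.18, 9.93 and 9.93 at 0 h, at 10.46, 10.20 and 10.05 in t12_25 and at 9.18, 9.33 and 8.88 at 12 h. It was between 9.96 and 10.21 at 4 h, between 9.77 and 10.06 at 24 h and between 9.90 and 10.11 at 72 h. Its change at 12 h was -0.995, and -0.18 (SE 0.16) with slide as a block. For mRpL32 the values were 7.68, 8.18 and 7.92 at 0 h, 7.68, 8.25 and 8.08 in t12_25 and 6.83, 7.04 and 7.10 at 12 h. It was between 7.51 and 8.06 at 4 h, between 7.28 and 7.68 at 24 h and between 7.65 and 7.82 at 72 h. Its change of -0.98 became -0.46 (SE 0.073) with slide as a block, the deepest of the 6 mitochondrial ribosome members. The other 4 (mRpS28, mRpS18B, mRpL21 and mRpS6) changed by between -0.91 and -0.83 in the deposited values and by between -0.29 and -0.14 in the blocked fit.

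The oxidative phosphorylation list held 132 probes with 6 members, and its median changes in the deposited values were -0.03, -0.11, -0.16 and -0.22 at 4, 12, 24 and 72 h. Of its 126 other probes, limma on scanner values called none lower and 1 higher at 12 h, 2 lower and 1 higher at 24 h, and 2 lower at 72 h, at an adjusted p under 0.05 and at least 2-fold (0.367%, 0.749% and 0.97% of all probes lower at these times). The mitochondrial ribosome list held 80 probes with 6 members, with median changes of -0.09, -0.19, -0.19 and -0.14. None of its 74 other probes was called at any of these times in that fit. With slide as a block 3 of these 74 were called lower at 24 h and 1 at 72 h (0.802% and 0.908% of all probes). Of the 126 oxidative phosphorylation probes, the blocked fit called none lower at 12 h or 24 h and 3 lower at 72 h. It called 1 higher at 12 h and 1 at 24 h.

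Without the fold limit more probes of both lists passed an adjusted p under 0.05 in limma. Of the 126 other oxidative phosphorylation probes, 8 were lower at 12 h, 24 at 24 h and 41 at 72 h (5.05%, 7.89% and 9.14% of all probes), and with slide as a block 16, 17 and 68 were (9.15%, 5.34% and 12.9%). Of the 74 other mitochondrial ribosome probes, 15, 27 and 20 were lower at these times, and with the block 28, 21 and 34. At 4 h at most 2 probes of either list were lower in either fit. The probes counted in both lists were required not to be members, which limits how many can be low. These counts, with and without the fold limit, are a description.

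The 31 named members lowest at 12 h also included genes outside mitochondria. Akirin is a nuclear protein that links transcription factors to chromatin remodelling. It stood at 10.05, 10.53 and 10.03 at 0 h, at 10.39, 10.38 and 10.38 in t12_25, and at 9.08, 9.35 and 9.33 at 12 h, against 10.14 to 10.62 at 4 h, 10.15 to 10.99 at 24 h and 10.12 to 10.81 at 72 h. The change of -1.04 became 0.08 (SE 0.087) with slide as a block. It had the largest difference between slides 7 and 4 among the named members, 2.13.

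Polr2E is a subunit that the nuclear RNA polymerases share. Its probe stood at 10.87, 10.98 and 11.02 at 0 h, at 11.21, 11.20 and 10.92 in t12_25 and at 10.05, 10.11 and 10.02 at 12 h. It was between 10.72 and 10.99 at 4 h, between 10.67 and 10.79 at 24 h and between 10.78 and 11.16 at 72 h. The change was -0.97, and -0.38 (SE 0.095) with slide as a block. Pfk, the phosphofructokinase of glycolysis, stood at 9.93, 10.27 and 10.13 at 0 h, at 10.20, 10.10 and 10.17 in t12_25 and at 9.15, 9.27 and 9.02 at 12 h. It was between 9.92 and 10.09 at 4 h and still between 9.42 and 9.59 at 24 h, and at 72 h it stood at 10.74, 10.77, 10.39 and 10.46, above every array at 25 °C. Its changes were -0.99 at 12 h and 0.46 at 72 h, and -0.56 (SE 0.091) and 0.29 with slide as a block, so fall and later rise both remained in that fit at a smaller size. The other 2 probes of Pfk changed by -0.44 and 0.04 at 12 h.

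The gene ste24b, of the family of CAAX prenyl proteases, was the only named member lowest at 12 h whose change stayed at -0.8 or less in the blocked fit. It stood at 8.05, 7.91 and 8.21 at 0 h, at 8.19, 8.20 and 8.07 in t12_25, and at 7.27, 7.26, 7.13, 7.43 and 7.16 at 4 h. It remained at 7.23, 7.01 and 7.07 at 12 h and at 7.30, 7.24, 7.22, 7.30 and 7.32 at 24 h, and reached 7.63, 7.54, 7.62 and 7.77 at 72 h. No array at 14 °C overlapped those at 25 °C. The change was -1.002 at 12 h, and -1.20 (SE 0.077) with slide as a block, with -1.26 within slide 1 and -1.10 within slide 3. At 72 h it was -0.47 (-0.42 with slide as a block). Slides 7 and 4 differed by -0.05. The fly has further ste24 genes of similar sequence, and how far the probe tells them apart is not known here.

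The remaining named members lowest at 12 h were, by role, the mitotic phosphatase stg and the kinetochore protein Nnf1b from the M phase list (45 probes), the replication factor RPA1 from the S phase list (53 probes), the histone deacetylase HDAC3 and the Polycomb protein Pcl in chromatin, the RNA-binding protein Hrb98DE, the peptidyl-prolyl isomerase Cyp1, the nuclear anchor Msp300, the teneurin Ten-m and the signalling protein spri. Arts, CG5335, CG8545, CG17385 and CG13339 complete the list. In the deposited values all 31 changed by between -1.06 and -0.80 at 12 h (median -0.92). With slide as a block they changed by between -1.20 and 0.19 (median -0.29), and Nnf1b (-0.66), Hrb98DE (-0.62) and Pfk (-0.56) followed ste24b. RPA1, CG8545 and Cyp1 were at 0.15, 0.07 and 0.05. The S phase list as a whole had median changes of -0.52 at 12 h, -0.80 at 24 h and -0.82 at 72 h, and RPA1 was its only member of the transient set. The M phase list had medians of -0.22, -0.33 and -0.45. The probe of spri was above background on no array at 25 °C, and its fall came from a single 12 h array at 4.22 against 6.10 and 6.17 on the others and 6.23 to 6.43 at 25 °C.

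**Figure D4:**
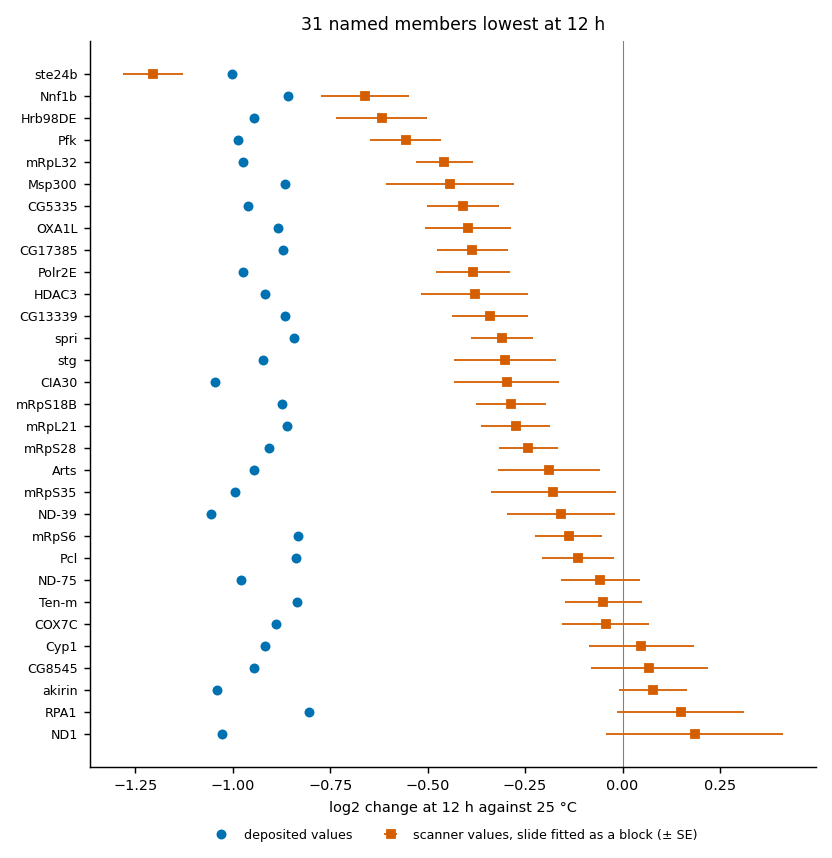
Log2 change at 12 h against 25 °C (x axis) of the 31 named members lowest at 12 h (y axis), in the deposited values (circles) and in the scanner values with slide fitted as a block (squares, with SE). The deposited changes lie between -1.06 and -0.80, and the blocked changes between -1.20 (ste24b) and 0.19 (ND1).

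Some transcripts of the members had further probes on the array. For the members lowest at 12 h, 53 probes had at least 1 other probe of the same transcript on the array that was not a member, and there were 66 such probes, 61 of them well above background on all 6 arrays at 25 °C. The median change of these 66 was -0.17 at 12 h, with a range from -0.99 to 0.54, against -0.91 for the 53 members. At 4, 24 and 72 h the 66 changed by -0.07, -0.26 and -0.21. Of them, 5 reached -0.8 at 12 h. These 66 were required not to be members, which limits how low they can be, so the values are a description. In 4 transcripts 2 or more probes lowest at 12 h were members (9 probes). With those counted among the others there were 75 probes, with a median of -0.25, of which 14 reached -0.8. The difference between slides 7 and 4 had a median of 1.16 in the 53 member probes and of -0.11 in the 66 others. By gene, the other probe came near the member for HDAC3 (-0.83), Ten-m (-0.79) and Hrb98DE (-0.71). ND-39 (-0.66), CIA30 (-0.635) and mRpL21 (-0.63) were among those in between. Other probes were far from the member for Arts (0.07 to 0.14 in 3 probes), ND-75 (-0.01 and 0.30), Cyp1 (-0.16 and -0.10) and spri (0.67). The dimmest other probes stood at 6.45 for Arts and 6.47 for ND-75 at 25 °C, where a fall has little room to show. Probes of a transcript can differ in the isoforms they detect, which was not tested.

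**Figure D5:**
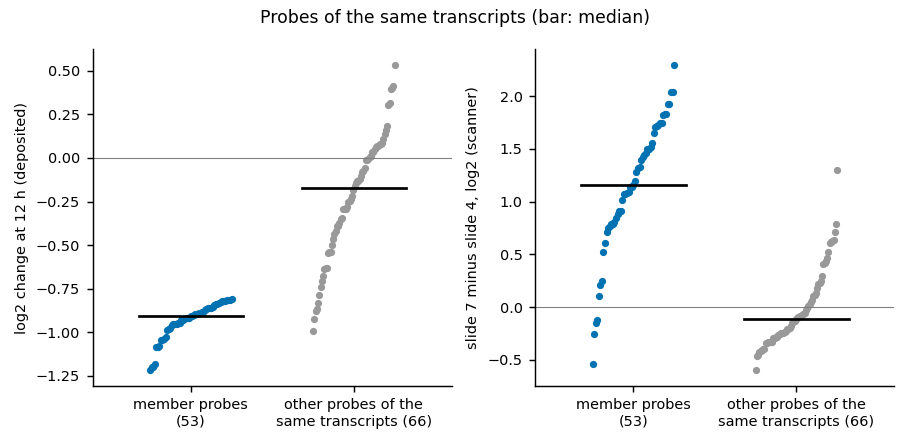
Member probes lowest at 12 h (53) and other probes of the same transcripts that were not members (66), each point a probe and the bar the median. The left panel shows the log2 change at 12 h in the deposited values (medians -0.91 and -0.17), and the right panel the log2 difference between slides 7 and 4 in the scanner values (medians 1.16 and -0.11).

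Signal brightness differed among the members. Of the 185, 184 were well above background on all 6 arrays at 25 °C and 177 on all 23 arrays. Members lowest at 12 h had a median level of 8.87 at 25 °C, and those lowest at 4 h and 24 h had 10.87 and 11.19. Among probes well above background, 3.47% of those with a level from 8 to 9 were members and 0.513% of those from 12 to 13. The difference between slides 7 and 4 was also described by brightness. Between levels of 8 and 10, 3943 probes had a median difference of -0.14, and 5.66% of them reached 1. The 111 members among them had a median of 1.23, and 65.8% reached 1. This contrast was picked after its pattern had been seen in the members, so these values are a description. Whether brightness plays a part in the slide difference was not tested.

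The contrast of t12_25 against 0 h asks whether members already moved with 12 h more growth at 25 °C. The selection did not use this difference. It used all 6 arrays as the baseline and favoured probes with little spread among them in the deposited values. In scanner values without a block, differences between slides add to the spread, which makes it harder for members to pass. The counts of members are therefore a description. In limma on scanner values, 0 probes were called (0% of all probes in either direction), and 2 members had an unadjusted p under 0.05, 1 of them higher, against 4.05% of all probes. The members' median difference was 0.15, and over all probes it was -0.00. DnaJ-1 differed by 0.07 (SE 0.33), -0.10 (SE 0.26) and -0.14 (SE 0.23) in its 3 probes, Hsp68 by 0.02 (SE 0.57) and ste24b by 0.10 (SE 0.14), all with an adjusted p of 1 in limma. With slide as a block, 42 members had an unadjusted p under 0.05, 39 of them higher in t12_25 (8.9% of all probes in either direction), and in the deposited values 46, of which 43 were higher (9.2% of all probes), while no member was called at an adjusted p under 0.05 and at least 2-fold in either. In the deposited values ND1 was higher in t12_25 by 0.95 (SE 0.18, adjusted p 0.0291 in limma). Those values had been adjusted beforehand, which the fit does not take into account. In scanner values the ND1 difference was 0.95 (SE 1.26) without a block. It was 0.91 (SE 0.26, adjusted p 0.273 in limma) with slide as a block.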

How the data were processed

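RNA extracted with TRIzol was labelled with Cy3 and hybridized to 23 one-colour Agilent arrays. The authors deposited scanner intensities (Feature Extraction 10.7.3.1) and log2 values, which per their methods were background-corrected by normexp and quantile-normalized with limma, adjusted by surrogate variable analysis, and reduced to the median over spots of a probe. The selection used the deposited log2 values. For tests, the intensities were corrected by normexp (offset 50, with 23 local backgrounds above 3 times the array median set to that median), quantile-normalized, reduced to probe medians and fitted by group in limma 3.58.1 (R 4.3.3), with Benjamini-Hochberg adjustment over 32162 probes. A probe was called at an adjusted p under 0.05 and at least 2-fold. The number of arrays limits the precision. The limma step was tested on simulated data with independent noise on each array and planted changes larger than those of the members. The simulation held no differences between slides, so it does not show how the step handles them.

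Of the probes, 4062 were paired with 1 gene, through the study's annotation and RefSeq names, 30 with several and 28070 with none, and only the first are named. All members with 1 gene were named, and the 15 deepest that were above background on all 25 °C arrays got every value or its range. The members and gene lists were chosen with earlier results of these data known. The contrast of slides and the comparisons within slides were added after seeing the data. Other settings tried were no capping, 75th percentile scaling, slide, scan date or replicate number as a block, another baseline, other limits and leaving out each array. Same-numbered 0 h and t12_25 arrays deviated together in the scanner values (r 0.47, 0.84 and 0.60 across probes), and were treated as paired in the replicate block. Numbers 1 and 3 each shared a slide, arrays of these numbers also correlated across them (0.37 and 0.38), and in the deposited values the same-numbered correlations were 0.31, -0.01 and -0.15. Promoter sequences were not used here.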

Additional observations from a re-analysis of the deposited data

Results flagged for a closer look

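In 45 groups of 4 or 5 arrays, 4 values stood far from the others of their group, and chance alone flags about 1 group in 20. One probe of DnaJ-1 stood at 11.30 on the fifth array at 4 h, against 10.98 to 11 on the others. The probe of mRpL32 stood at 8.06 on the same array, against 7.51 to 7.61. ND1 stood at 11.18 on the fifth array at 24 h, against 11.71 to 11.89. These arrays were those of 4 h and 24 h that lay on slide 2. The noncoding RNA lncRNA:CR43242 stood at 9.07 on the fourth array at 24 h, which lay on slide 7, against 8.49 to 8.62. Whether the slide accounts for these values was not tested.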

How the results depend on the processing

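The selection depended on the values used. Of 185 members in the deposited values, the same rule gave 78 in scanner values (68 of them shared), 53 without capping (51 shared) and 90 after slide effects had been removed (40 shared). Limits of -1 and -0.6 gave 56 and 488. With 75th percentile scaling there were 220 members, of which only 55 were shared. Leaving out 1 array gave 163 to 218.

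The members' median change at 12 h was -0.90 in the deposited values, -0.81 in scanner values without capping, -1.09 with 75th percentile scaling, -0.36 with slide as a block, -0.59 with scan date as a block and -0.34 within slides in scanner values. It was -0.82 against 0 h alone and -0.99 against t12_25 alone. At 72 h the median of -0.19 became -0.33 with the slide block, -0.0501 with the scan block, -0.35 within slides and -0.25 against t12_25 alone. At 4 h, -0.24 became -0.39 with the scan block, and at 24 h -0.36 became -0.50 with it and -0.45 against t12_25 alone. Leaving out 1 array gave -0.29 to -0.20 at 4 h, -0.95 to -0.87 at 12 h, -0.40 to -0.34 at 24 h and -0.22 to -0.16 at 72 h. The causes of these shifts were not tested.

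For t12_25 against 0 h, the count of 0 probes called by limma became 1 in the deposited values and 1 without t12_25 replicate 3 (0 to 1 over the arrays left out). The 2 members at an unadjusted p under 0.05 became 1 with 75th percentile scaling, 46 in the deposited values, 42 with the slide block and 4 with the scan block, and 2 to 3 with 1 array left out. The members' median of 0.15 ranged from -0.41 without t12_25 replicate 2 to 0.67 without 0 h replicate 2. With the replicate number as a block in scanner values, 3 members had such a p and 0 probes were called. With that block in the deposited values, 55 members had such a p and 1 probe was called. The medians at 4, 12, 24 and 72 h in the deposited values with that block were -0.29, -0.90, -0.40 and -0.20. In both sets of values the count of probes called was the same with and without the block. Of 531 values for the 38 named probes over 14 alternatives, 2 passed an adjusted p of 0.05, those of ND1 and CG13339 in the deposited values. All members but the probe of spri were above background on every 25 °C array.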
